A study of Mus musculus with 4 samples.

Results

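Intronic regions bound by SMAD4 close to a gene start were examined in mouse alveolar macrophages (AMs). The members were merged intervals that held a SMAD4 peak of both replicates, had their midpoint in an intron and lay at most 10 kb from the nearest transcription start site (TSS). Midpoints in an exon, in a promoter (up to 1 kb before or 100 bp after a TSS) or at a gene end (up to 100 bp before or 1 kb after it) were left out. Of 10964 regions found in both replicates, 1834 were members (16.7%). The choice used positions and the presence of a called peak in both lists, and did not use sequence. It set no further limit on peak height, but strong regions are more likely to be called in both lists. Another 3577 shared regions were intronic but beyond 10 kb, and 1143 were intergenic within 10 kb, and these classes served for comparison.

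AMs came from 9-week-old wild-type C57BL/6J mice, and were collected by bronchoalveolar lavage and sorted by flow cytometry. There was a single condition, with 2 SMAD4 immunoprecipitates and 2 input libraries as controls. The assay was HT-ChIPmentation, in which the transposase Tn5 adds sequencing adapters to chromatin while it is still on the beads. The sources used here do not say whether the replicates came from separate animals or pools, so that differences between them may be technical.

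SMAD4 is the common partner of the receptor-activated SMAD proteins. After TGFβ binds its receptors, these proteins are phosphorylated, join SMAD4 and enter the nucleus, where SMADs bind short DNA elements weakly and usually act beside other transcription factors (TFs). In AMs, autocrine TGFβ is needed for development and maintenance, and PU.1, C/EBP proteins and PPARγ are among the TFs that define the cell. First introns of mammalian genes often carry enhancers.

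The sequences at the summits of 10 members are given as examples of the strings counted in all members and of a strong member without any marked string. They were chosen for their strength or gene, and do not represent the frequency of strings in all members. Each is the 201 bp around the mean summit of both replicates, on the plus strand of mm10 (GRCm38, RefSeq). They are named by the gene with the nearest TSS, and the first 7 are among the 10 strongest members. Capitals mark matches, on either strand, to CEBP (TTGCNNAA), PU.1 (GAGGAAGT), an ETS string of the ELF5 type (CAGGAAGT), AP-1 (TGANTCA), RUNX (TGTGGT) and the SMAD strings GTCTAGAC and GTCTGG.
Ccr1, chr9:123964841-123965041: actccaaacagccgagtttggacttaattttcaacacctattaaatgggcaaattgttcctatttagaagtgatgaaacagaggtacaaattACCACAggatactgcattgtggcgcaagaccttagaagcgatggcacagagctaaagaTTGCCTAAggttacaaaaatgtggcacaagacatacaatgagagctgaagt
Abhd5, chr9:122357128-122357328: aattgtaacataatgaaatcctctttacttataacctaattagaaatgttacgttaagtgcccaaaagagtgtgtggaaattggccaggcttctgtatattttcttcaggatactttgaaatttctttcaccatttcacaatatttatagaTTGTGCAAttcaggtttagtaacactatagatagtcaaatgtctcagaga
Cd36, chr5:17833922-17834122: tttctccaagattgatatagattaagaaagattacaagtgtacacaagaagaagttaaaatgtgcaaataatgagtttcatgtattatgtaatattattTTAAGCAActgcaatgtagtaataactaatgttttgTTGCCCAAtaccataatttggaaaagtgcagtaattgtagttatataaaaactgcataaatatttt
Hmga2-ps1, chr1:176826242-176826442: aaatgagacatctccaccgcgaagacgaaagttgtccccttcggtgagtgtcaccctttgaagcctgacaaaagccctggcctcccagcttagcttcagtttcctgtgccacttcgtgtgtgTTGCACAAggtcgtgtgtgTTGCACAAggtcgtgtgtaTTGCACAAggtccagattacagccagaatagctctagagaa
Gsap, chr5:21189104-21189304: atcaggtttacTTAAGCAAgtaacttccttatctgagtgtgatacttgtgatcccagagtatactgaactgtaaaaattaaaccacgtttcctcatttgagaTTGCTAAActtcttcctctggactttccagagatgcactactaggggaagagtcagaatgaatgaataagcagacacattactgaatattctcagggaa
Bst1, chr5:43827101-43827301: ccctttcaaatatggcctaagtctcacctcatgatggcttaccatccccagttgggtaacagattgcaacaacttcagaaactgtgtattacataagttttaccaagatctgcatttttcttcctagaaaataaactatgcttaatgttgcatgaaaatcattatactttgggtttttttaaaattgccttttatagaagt
Gm40733, chr10:88372483-88372683: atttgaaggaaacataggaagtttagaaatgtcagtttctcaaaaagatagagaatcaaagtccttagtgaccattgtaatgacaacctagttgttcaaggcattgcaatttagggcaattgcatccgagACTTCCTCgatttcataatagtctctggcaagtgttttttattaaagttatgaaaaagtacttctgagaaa
Pparg, chr6:115424570-115424770: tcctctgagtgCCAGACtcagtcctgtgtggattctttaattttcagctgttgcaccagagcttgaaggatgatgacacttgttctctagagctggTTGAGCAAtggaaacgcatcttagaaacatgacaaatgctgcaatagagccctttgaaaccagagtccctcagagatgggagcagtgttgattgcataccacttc
Irf8, chr8:120741106-120741306: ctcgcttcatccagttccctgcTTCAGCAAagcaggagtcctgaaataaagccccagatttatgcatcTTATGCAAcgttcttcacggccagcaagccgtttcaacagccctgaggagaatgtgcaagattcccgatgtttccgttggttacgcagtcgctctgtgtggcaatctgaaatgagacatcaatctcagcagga
Ski, chr4:155217225-155217425: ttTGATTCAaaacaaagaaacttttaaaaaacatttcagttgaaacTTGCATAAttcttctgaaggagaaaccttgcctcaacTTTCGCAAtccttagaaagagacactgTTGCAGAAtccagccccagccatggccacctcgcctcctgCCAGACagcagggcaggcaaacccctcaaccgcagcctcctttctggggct

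A CEBP string was present in 8 of these 10 windows. It lay at the mean summit itself in the Pparg window and 3 bp from it in the Cd36 window. The Hmga2-ps1 window held the same string, TTGCACAA, at 3 places on the same strand, at 26, 45 and 64 bp from the summit. The Ski window had 3 CEBP strings, an AP-1 string and the reverse complement of GTCTGG. The Gm40733 window had no CEBP string and carried a PU.1 string 34 bp from the summit, and the Bst1 window held none of the marked strings. A match describes letters and does not show that the factor was bound.

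The members had moderate enrichment, with a short list of very strong regions. Fold enrichment over the control had a median of 6.5 in replicate 1, with quartiles of 5.2 and 9.42. In replicate 2 the median was 9.66, with quartiles of 6.77 and 14.4. The strongest values were 39.3 and 64.1. At the summit, the median number of stacked fragments was 20 in replicate 1 (range 9 to 120) and 21 in replicate 2 (range 8 to 141). The replicates thus had like stacks and unlike folds, because the background level under most peaks was 2.08 fragments in replicate 1 and 1.22 in replicate 2. No difference in binding between replicates was read from the folds. Across the 1834 members the folds ranked alike, with a Spearman rho of 0.783 and a Pearson r of 0.84 on the log2 scale. These are correlations across regions of the same libraries, which are not independent replicates. The summits of both replicates lay a median of 49 bp apart, and the median region was 429 bp wide.

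**Figure D1:**
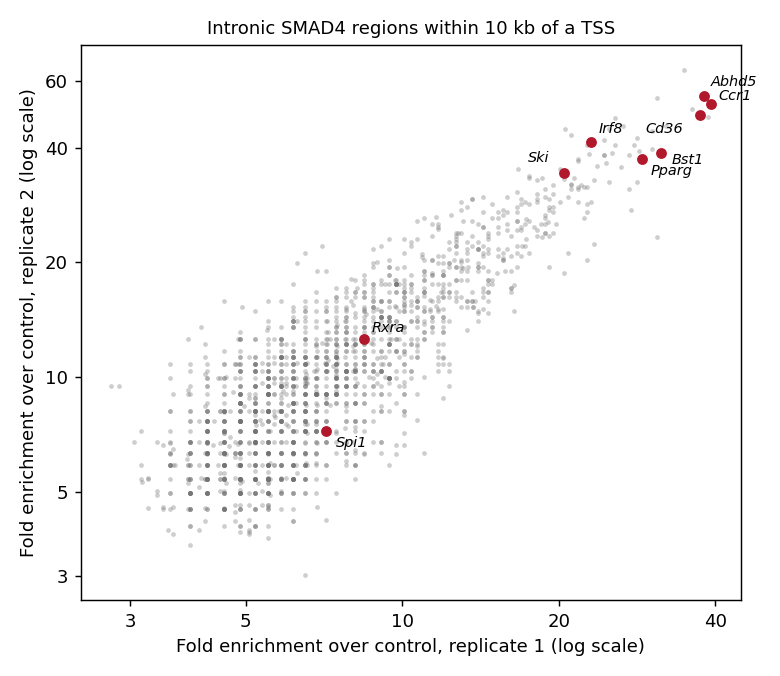
Fold enrichment of the 1834 members in replicate 1 (horizontal, log scale) and replicate 2 (vertical, log scale). Each grey point is a region, and red points are the strongest members near named genes. Weak members form a broad cloud, and the strongest scatter around a line from Ski (20.5 and 34.3) to Ccr1 (39.3 and 52.3). Some lie well off it, such as Hmga2-ps1 (34.8 and 64.1).

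About as many of the intronic regions close to a TSS were found by both libraries as by a single one. In the union of both peak lists, 3531 regions met the position rule, and 51.9% of them (exact 95% interval 50.3 to 53.6) held a peak of both lists, against 46.2% of the 23729 regions in any feature. The share was 48.9% (47.8 to 50.1) for introns beyond 10 kb, 51.9% for intergenic regions within 10 kb and 43.5% for promoters. All such intervals cover counting error only. Of the unshared regions, 488 were found in replicate 1 alone and 1209 in replicate 2 alone. These were weak, with median folds of 4.55 and 5.41, median stacks of 13 and 11 fragments and median peak widths of 142 and 161 bp. The peaks of members had median widths of 322 and 379 bp. Members had to be called in both lists, so that this contrast follows in part from the choice.

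The strength of members was close to that of the compared distal classes. Median folds in introns beyond 10 kb were 6.82 and 9.48, in intergenic regions within 10 kb 6.82 and 9.93, and in promoters 6.17 and 9.48. Of the members, 9.49% (8.18 to 10.9) were among the strongest 10% of all shared regions, those with at least a 14.3-fold enrichment in both replicates. That share was 10.7% (9.69 to 11.7) in introns beyond 10 kb, 10.3% (8.62 to 12.2) in intergenic regions within 10 kb and 6.34% (4.66 to 8.39) in promoters. The interval of the promoters ended just above the lower end of that of the members.

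Intronic SMAD4 regions were denser close to a TSS. Introns within 10 kb of a TSS comprised 204 Mb and held 8.99 shared regions per Mb (exact 95% Poisson interval 8.59 to 9.41). Introns beyond 10 kb held 4.75 per Mb (4.6 to 4.91) over 753 Mb, a ratio of 1.89. Within the 10 kb the density was highest from 1 to 2 kb, at 13.4 per Mb (12 to 14.9), and lowest from 8 to 9 kb, at 6.73 (5.6 to 8.03). From 4 to 10 kb the bins lay between 6.73 and 8.51 per Mb with overlapping intervals. Further out it was 7.25 per Mb (6.82 to 7.71) from 10 to 20 kb, close to those bins, and 3.15 (2.98 to 3.34) beyond 50 kb. The 10 kb limit therefore marked no step. Fold enrichment did not follow the density, as the median per bin stayed between 6.17 and 7.47 in replicate 1 and between 9.02 and 10.4 in replicate 2.

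**Figure D2:**
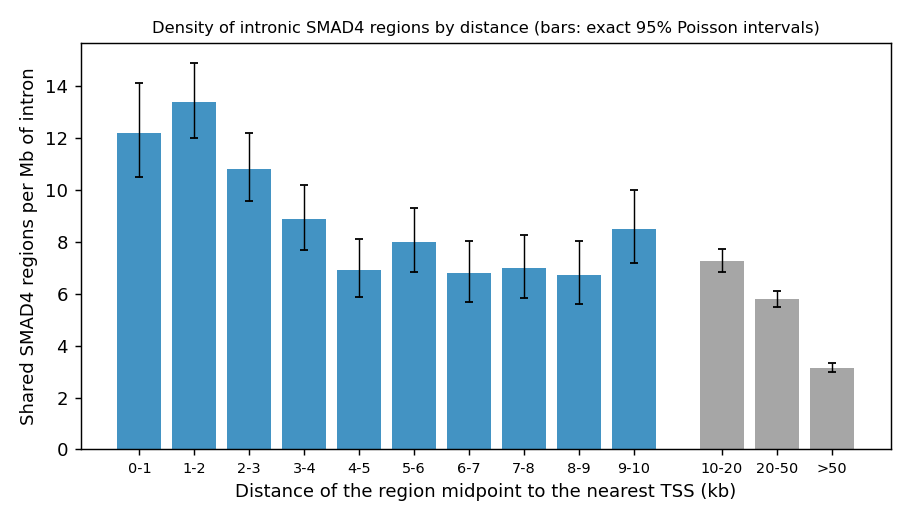
Shared SMAD4 regions per Mb of intron (vertical) by distance to the nearest TSS in kb (horizontal). Blue bars are the members, in bins of 1 kb, grey bars are intronic regions beyond the 10 kb limit, and lines are exact 95% Poisson intervals. The density fell from 13.4 per Mb at 1 to 2 kb to between 6.73 and 8.51 in the bins from 4 to 20 kb, and to 3.15 beyond 50 kb.

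First introns carried most of the members. A first intron of at least 1 transcript held 1312 members, or 71.5% (69.4 to 73.6), and made up 55.9% of the eligible intron bases. First introns lie closer to the TSS, so densities were also compared at like distances. From 0 to 2 kb there were 14 regions per Mb in first introns (12.7 to 15.3) and 8.76 in later introns (6.83 to 11.1). At 2 to 5 kb the densities were 11.4 (10.4 to 12.5) and 5.61 (4.78 to 6.54), and at 5 to 10 kb they were 9.8 (8.88 to 10.8) and 5.46 (4.84 to 6.12). The intervals were apart in each of these bins. The nearest TSS belonged to the gene whose intron held the midpoint for 90.1% of members (88.6 to 91.4), and 87.4% were nearest to a protein-coding gene. A minority of 14.8% (13.2 to 16.5) lay upstream of the nearest TSS, in an intron of a longer transcript or another gene, against 17.7% of eligible bases. The median distance to the TSS was 3766 bp (quartiles 1787 and 6561) and the median length of the intron was 10706 bp. The member closest to a TSS had its midpoint in the first intron of Selenop, which encodes the plasma selenium carrier, 119 bp from the TSS. Its interval spanned that TSS, and both summits lay less than 100 bp after it, inside the promoter limit. The farthest member was 9994 bp from the TSS of Cd84, a receptor of the SLAM family.

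CEBP was the most frequent of the strings that were commoner in members than in the intron around them. Strings were searched on both strands in the 201 bp around the summit, in a window of the same size 1 kb further from the TSS (the flank), and in all 968720 windows that tile introns within 10 kb of a TSS. CEBP occurred at 43.8% of summits (41.5 to 46.1), in 8.45% of flanks (7.22 to 9.82) and in 8.1% of the tiling, a ratio of 5.18 to flanks. PU.1, the factor of the Spi1 gene that acts in all macrophages, had the highest ratio of the 17 strings, 6.6, at 7.2% of summit windows (6.06 to 8.48) against 1.09% of flanks. The ETS string of the ELF5 type was in 4.58% against 1.42%, and AP-1, the element of JUN and FOS proteins, in 12.9% against 6.82%. RUNX, the element of RUNX1 among others, occurred at 25.8% of summits (23.9 to 27.9) compared with 15.9% in flanks (14.2 to 17.6).

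The 2 shorter SMAD strings, GTCTGG and GGCGC, were about as frequent beside the members as in them. GTCTGG occurred at 11.8% of summits (10.4 to 13.4), in 11.5% of flanks and 10.6% of the tiling. The GC-type SMAD string GGCGC occurred in 4.63% and 5.18%. The longer GTCTAGAC, a palindrome, occurred at 4 summits and in 2 flanks, too few to compare. Over all 10964 shared regions it was at 0.465% of summits (0.347 to 0.611) against 0.182% of flanks (0.111 to 0.282). Any of the 3 occurred at 15.8% of summits (14.1 to 17.5) compared with 16.2% in flanks (14.6 to 18). Short strings match often by their length alone, and weaker SMAD elements were not searched. The intervals of summits and flanks also overlapped for the nuclear receptor half-site AGGTCA (13.1% and 12.8%), the RBPJ string GTGGGAA (4.14% and 4.31%), the IRF string GAAANNGAA (7.58% and 8.07%) and the STAT string TTCNNNGAA (7.47% and 6.76%). Over all 10964 shared regions they were apart for AGGTCA (15.4% and 12.3%), the IRF string (8.66% and 6.99%) and the STAT string (8.06% and 6.52%). For the RBPJ string they still overlapped (4.14% and 3.87%). A DR1 element, the PPAR and RXR site of 2 AGGTCA half-sites 1 base apart, was in 2 summit windows and 1 flank in its exact form. Of the 17 strings searched, none was present in 293 members (16%, 14.3 to 17.7).

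**Figure D3:**
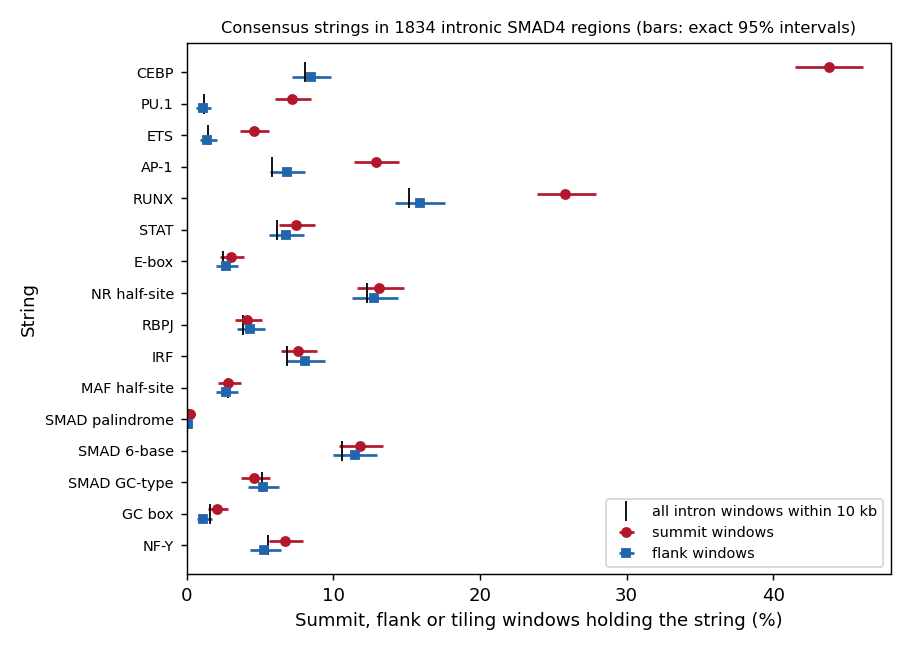
Share of 201 bp windows that hold each string (horizontal, %), for 16 of the 17 strings (the exact DR1 element, in 2 windows, is left out). Red circles are summit windows of the 1834 members, blue squares their flanks, both with exact 95% intervals, and black ticks all windows of introns within 10 kb of a TSS. CEBP (43.8% against 8.45%) stands far to the right, PU.1, ETS, AP-1 and RUNX are shifted, and the 2 shorter SMAD strings coincide with their flanks. The SMAD palindrome, in 4 summit windows and 2 flanks, was too rare to compare.

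The CEBP strings differed in their 2 central bases and in number. Of 946 CEBP sites in summit windows, TTGCACAA made up 18% (170 sites, against 8 in flanks) and TTGCTCAA 12.9% (122 against 16). TTGCAAAA gave 116 sites against 14. By contrast TTGCTGAA was no more frequent at summits, with 15 sites against 18 in flanks. The palindrome TTGCGCAA had 18 sites at summits and 0 in flanks, where a count of 0 allows up to 3. At least 2 CEBP sites were present in 125 summit windows (6.82%, 5.7 to 8.07) and in 4 flanks. Sites also gathered at the summit. The site nearest to the summit lay within 25 bp of it in 39.5% of windows with a CEBP string and in 43.2% of those with PU.1, against 26.5% of 155 and 10% of 20 flanks, measured from the centre. For GTCTGG these shares were 27.6% and 25.7%. A window with at least 2 sites is more likely to hold a near one. The part of the CEBP contrast that follows from site number was not separated.

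Stronger members held CEBP strings more often. When members were ranked by the smaller of their 2 folds, CEBP was in 37.6% (32.6 to 42.8) of the weakest quintile and 34.9% (30 to 40) of the second quintile. It was in 49.6% (44.4 to 54.8) of the fourth and 56.1% (50.9 to 61.3) of the strongest, whose interval did not meet those of the weakest 3 quintiles. Neither PU.1 (8.45% in the weakest quintile, 6.54% in the strongest), RUNX (26.2% and 27.8%) nor GTCTGG (11.4% and 9.81%) had such an order, and the intervals of all their quintiles overlapped. Members with a CEBP string had median folds of 7.47 and 10.4 (n = 803), and those without had 6.26 and 9.02 (n = 1031). The 133 members with a PU.1 or ETS string and no CEBP string had median folds of 5.85 and 9.48, and the 898 with neither had 6.5 and 9.02, so that the replicates gave no common order. CEBP and one of these strings occurred together in 78 members (4.25%), with median folds of 7.8 and 11.3, against 7.47 and 10.4 in the 725 with CEBP alone.

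**Figure D4:**
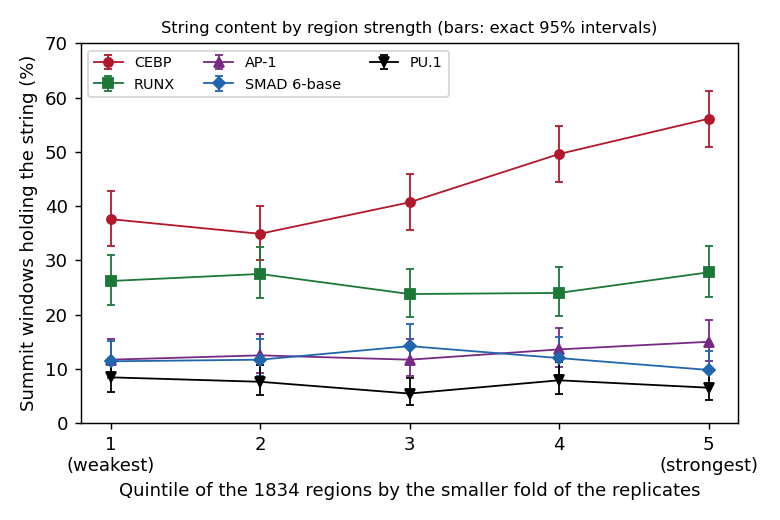
Share of summit windows that hold a string (vertical, %) by quintile of the 1834 members ranked on the smaller fold of the replicates (horizontal), with exact 95% intervals. CEBP (red circles) went from 37.6% in the weakest quintile to 56.1% in the strongest, while RUNX, AP-1, PU.1 and the 6-base SMAD string GTCTGG stayed level within their intervals.

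Some strings differed with distance or class. CEBP was in 48.3% (44 to 52.8) of members within 2 kb of the TSS, 40.9% (37 to 45) of those at 2 to 5 kb and 42.9% (39.2 to 46.7) of those at 5 to 10 kb, with overlapping intervals. The GC box, an element of promoters bound by SP factors, was in 4.27% (2.7 to 6.4) of the nearest members and 0.708% (0.23 to 1.64) of the farthest. The GC-type SMAD string GGCGC was in 6.99% (4.94 to 9.55) within 2 kb, 2.45% (1.38 to 4) at 2 to 5 kb and 4.82% (3.36 to 6.66) at 5 to 10 kb, with no order by distance. Compared with introns beyond 10 kb, members had CEBP more often by 3.64 percentage points (Newcombe 95% interval 0.864 to 6.42) and AGGTCA less often, with a difference of -2.1 points (-4 to -0.112). The MAF half-site TGCTGAC and the GC box also had intervals away from 0, with differences of -1.25 and 0.87 points. Compared with intergenic regions within 10 kb, AGGTCA (-3.74 points, -6.46 to -1.12) and the ETS string (-2.24 points, -4.07 to -0.552) were less frequent, and the CEBP difference of 2.66 points had an interval that included 0 (-0.992 to 6.29). These 6 of 34 intervals were not adjusted for their number.

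Summits and flanks had like GC content and differed in repeats. Summit windows were 43.9% ± 6.64 G or C (mean and SD, n = 1834 windows), compared with 44.2% in flanks and 44.2% in the tiling. The mean number of CpG was 2.53 at summits and 2.08 in flanks, and 16.8% and 20.4% of these windows had none. The summit base was in soft-masked repeat sequence in 10.1% of members (8.8 to 11.6), against 25.1% (23.1 to 27.1) of flank centres and 27.7% of the tiling. In introns beyond 10 kb 10.3% of summits were masked, a difference of -0.146 points (-1.81 to 1.6). When each peak list was taken alone, mean GC content of regions by the same position rule was 42.3% in replicate 1 and 44.5% in replicate 2. CEBP was then in 35.2% and 36.8%, against 43.8% of members, so that its share depended on the demand for both lists.

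The members lay nearest to 1494 genes. They were spread thinly, as 1236 genes had 1 member, 258 had at least 2 and 61 had at least 3. Protein-coding genes numbered 1299, or 6.93% of the 18743 coding genes with eligible intron sequence. Cd36 had the most, followed by Adipor2, an adiponectin receptor, with 6, and by Mapk14, which encodes the p38α kinase, and Sh3bp2, an adaptor of immune receptor signals, with 5 each. AU019990 and Pparg had 4 each. The members of Cd36, Adipor2, Sh3bp2 and Pparg were nearest to more than 1 TSS of their gene. These counts were not set against the eligible intron of each gene.

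Cd36 encodes a scavenger receptor that takes up fatty acids and oxidised lipoproteins, and 7 of the 10 shared regions nearest to it were members. The strongest was at chr5:17833622-17834557, 1806 bp downstream of a TSS, with folds of 37.4 and 48.7 and stacks of 114 and 107 fragments. The next lay 5000 bp upstream of the nearest TSS, in a first intron of 53039 bp, with folds of 16.6 and 22.1. The other Cd36 members had folds from 7.8 to 13.1 in replicate 1 and from 9.48 to 25.7 in replicate 2, and all 7 were in first introns of the alternative transcripts. CEBP was in 4 of the 7 summit windows and PU.1 in 2 others. At Adipor2 and Sh3bp2 the members were many but weak, with folds of at most 9.42 and 14.4, and those of Mapk14 reached 17.5 and 21.2.

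The strongest member of all was at chr9:123964539-123965541 in the only intron of Ccr1, a receptor of inflammatory chemokines, with folds of 39.3 and 52.3 and stacks of 120 and 115 fragments. The second, at chr6:119487361-119488343, had folds of 38.7 and 48.3 and was nearest to Fbxl14 but lay in the first intron of Wnt5b, a Wnt ligand. At Abhd5, the coactivator of adipose triglyceride lipase, a region in the first intron, 5629 bp from the TSS (chr9:122356706-122357784), had folds of 38 and 54.6. Gsap, which encodes the γ-secretase activating protein, had folds of 32.2 and 45.6 at chr5:21188283-21189872. Bst1, which encodes CD157, had folds of 31.5 and 38.8 in intron 6 of 8 (chr5:43826744-43827520). The remaining 4 of the first 10, besides Cd36, were nearest to a pseudogene or to genes known by a model number. Among these, the Hmga2-ps1 region at chr1:176825864-176827080, in intron 3 of the centrosomal gene Sdccag8, had the highest fold of replicate 2, 64.1 with 141 fragments, and 34.8 in replicate 1. Gm11346, in an intron that it shares with Ripor2, had folds of 36.1 and 50.5, AU019990 had 30.9 and 54.1, and Gm40733 had 30.2 and 39.7.

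Macrophage genes were often next to a member. Of 28 TFs of macrophages with eligible introns, 13 had one (46.4%, 27.5 to 66.1), against the 6.93% of all coding genes. AM markers and core genes had 14 of 31 (45.2%, 27.3 to 64), lipid handling 10 of 30 and lysosome and uptake genes 10 of 30 (33.3% each, 17.3 to 52.8). Of the genes of other cell types, such as Sftpc, Cd3e and Alb, 0 of 27 had a member (exact 95% interval 0 to 12.8, which includes the 6.93%). A shared region of any class was nearest to 4 of them, a count without a share of all coding genes beside it. The genes of other cell types had less eligible intron, with a median of 4.13 kb against 9.22 to 9.8 kb in the other lists. All lists were chosen with earlier results of these data known. Binding near a marker gene is not a measurement of its expression, which these files do not hold.

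Among the TFs, Pparg had the strongest member. PPARγ, the partner of RXR, directs lipid handling in AMs, and its region in a first intron, 2461 bp from a TSS (chr6:115423954-115425099), had folds of 28.9 and 37.5, rank 12 of the members. Its other 3 members had folds from 5.85 to 8.12 and from 5.44 to 12.2, and all 4 held a CEBP string. Irf8, a TF of mononuclear phagocyte development, had folds of 23.1 and 41.5 at chr8:120740724-120741766 in intron 2 of 8. Ets2 had folds of 12.7 and 15.8, Fli1 10.4 and 18.5, Tfec 9.19 and 10.8, Stat5b 7.47 and 11.3 and Tfeb 7.46 and 14.4. Rxra, the gene of RXRα, had a single member at chr2:27714206-27714615, in its first intron and 3828 bp from the TSS, with folds of 8.45 and 12.6 and none of the 17 strings. Spi1 had 3 weak members, with folds of 7.15 and 7.22, 6.17 and 11.3, and 3.9 and 7.22.

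Of AM markers, F7, the gene of coagulation factor VII, had folds of 27.3 and 31.1, and Atp6v0d2, a proton pump subunit, 23.4 and 32.9. The others named by the rule were weaker, from Cd9 (11.4 and 20.3) and Ccl6 (12.3 and 10.8, in introns of E230016K23Rik) to Tlr2 (7.5 and 12.1), with Cdh1, the gene of E-cadherin, at 9.1 and 15.8, Ctsk at 9.1 and 14.4 and Olr1 at 8.12 and 10.4. In lipid handling, the stronger ones besides Cd36 included Soat1, which esterifies cholesterol (20.8 and 29.8), and the acyl-CoA synthetase gene Acsl1 (14.6 and 16.7). Lpl reached 10.1 and 10.8, and the triglyceride synthesis genes Dgat2 and Dgat1 had 6.17 and 9.93 and 6.17 and 14.4. Lpcat1 of phospholipid remodelling had 5.2 and 5.41. Clec7a, the β-glucan receptor Dectin-1, led the uptake genes with folds of 21.8 and 31.1 in an intron of 1585 bp. Fcgr3 had 9.42 and 17.6, Ctsb 8.45 and 18.5, Ctsz 6.17 and 10.4, Lamp1 5.97 and 9.02, Atp6v0d1 5.85 and 7.67 and Axl 5.85 and 12.6.

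**Figure D5:**
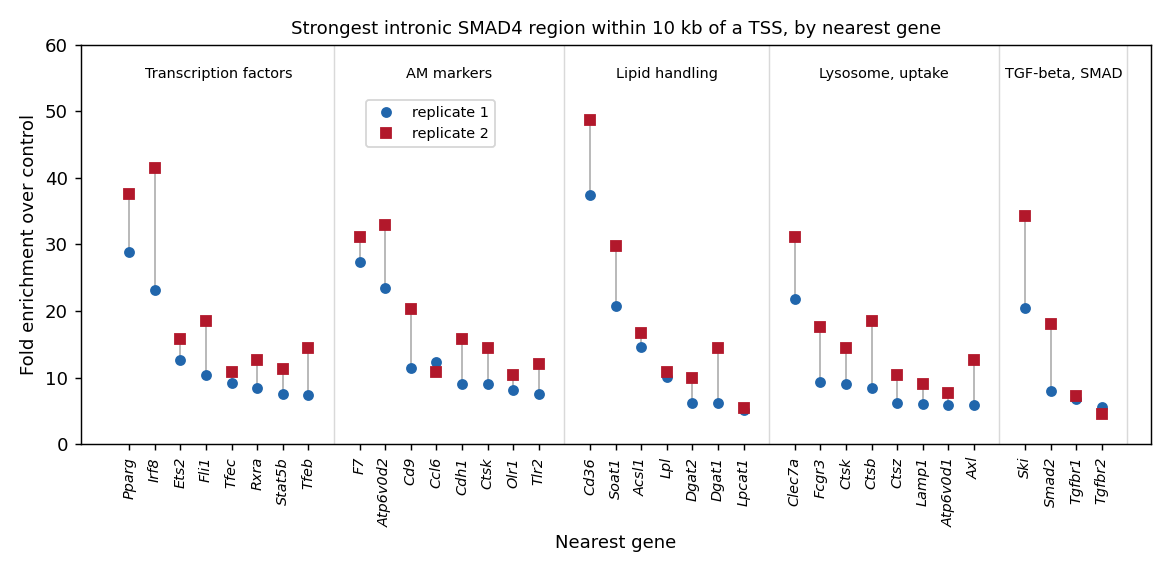
Fold enrichment (vertical) of the strongest member of each gene named from the gene lists, grouped by list along the horizontal axis. Blue circles are replicate 1 and red squares replicate 2, and genes named for other reasons only are not drawn. Cd36 (37.4 and 48.7), Pparg, Irf8, F7, Atp6v0d2, Clec7a, Soat1 and Ski exceeded 20 in both replicates, and most others lay below 15 in replicate 1.

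Genes of the TGFβ pathway itself had members at a share whose interval included that of all coding genes. Of 38 pathway genes with eligible introns, 4 had a member (10.5%, 2.94 to 24.8). A shared region of any class was nearest to 18 genes of the list. The share of all coding genes with such a region was not counted, so that the 18 cannot be judged high or low. Ski, which encodes a corepressor of SMAD complexes, had the strongest, with folds of 20.5 and 34.3 at chr4:155216557-155217859 in its first intron. The receptor-activated SMAD gene Smad2 had folds of 7.98 and 18.1. The type I receptor gene Tgfbr1 had 3 members, with folds of at most 6.82 and 7.22. The type II receptor gene Tgfbr2 had 1 weak member at 5.52 and 4.6. Shared regions of any class numbered 8 at Tgfbr1 and 6 at Tgfbr2. Of 12 loci that the study displayed, 6 had members, against 6.93% of all coding genes. They were Rxra, Spi1, Tgfbr2, Cdh1, Cd36 and Abca1, the cholesterol exporter, at 4.18 and 8.37. Abca1 was nearest to 8 shared regions of any class. The study displayed the 12 loci for matching peaks of SMAD4 and other TFs, so that the 6 do not measure enrichment. Csf2rb2, Mmp8, Zeb2, Itgax, Casp4 and Ppt1 had no member. Among these all but Csf2rb2 had at least 1 shared region of another class, again without a share of all coding genes beside it. Csf2rb, the paralogue of Csf2rb2 and named here after its values were seen, had a member 5744 bp from its TSS with folds of 5.67 and 9.63.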

How the data were processed

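SMAD4 binding was measured in 2 immunoprecipitated AM libraries, with 2 inputs as controls. Per the labels and the study's methods, reads were trimmed with cutadapt, aligned to mm10 with Bowtie2 and filtered with SAMtools, and peaks were called per library with MACS3 against input at a q-value limit of 0.05. For each peak the authors deposited a fold ratio of summit pileup over control, a −log10 p-value and a −log10 q-value, a score (not used here) and the summit position. The inputs enter only through the control level.

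Replicate numbers follow accession order. Overlapping peaks (1 bp or more) were merged, and midpoints were placed on 45657 curated RefSeq transcripts (GRCm38) in the order promoter, gene end, exon, intron, intergenic. The pileup was solved from fold and p, with 1 added to both pileup and control in the fold. It was whole within 0.02 fragments for 100% of peaks. Library totals are not given in the sources used here, so that depth is known only through these pileups. Summit windows span 100 bp each side of the mean summit. Shares have exact (Clopper-Pearson) 95% intervals, densities exact Poisson intervals and differences Newcombe intervals. There was no second condition, and no p-value was computed.

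Genes named are the nearest genes of the 10 strongest members by the smaller fold, the 6 genes with most members, up to 8 genes of each list, the members nearest to and farthest from a TSS and 12 loci of the study. Members and lists were chosen with earlier results of these data known. The split of first and later introns, the densities beyond 10 kb and the CEBP variants were added after the data had been seen. Trbc2 is not in the gene models used. A gene that the rule names in the lipid list is not reported here. Scripts were tested on simulated data. Tools were pysam 0.24.0 for sequence, scipy 1.17.1 and statsmodels 0.14.6 for intervals, and pandas 2.3.3 and numpy 2.4.6 in Python 3.11.15. Alternatives were another overlap, q, fold or distance limit, placement by summit, other transcript sets, other windows and each list alone.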

Additional observations from a re-analysis of the deposited data

How the results depend on the processing

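Of 104 alternative values, 63 stayed within their tolerance, 41 moved and 0 reversed. The tolerance for string, position and GC values was the SD of the 2 lists taken alone. For counts it was a factor of 1.5, and for the shared proportion and rho a 95% interval. Apart from rho, these values have no sign and could not reverse, so that the 0 is no evidence of stability. The number of members was 1128 with a 5 kb limit and 2870 with 20 kb, and the median distance was then 2153 and 7060 bp. Requiring 50% reciprocal overlap gave a shared proportion of 41.4% and a rho of 0.81, with a host gene share of 90.4% and CEBP in 45.1%. A minimum fold of 5 gave 53.9%, with 90.6% host gene, 45.6% CEBP and 6.73% PU.1, and a q of at most 0.001 gave 71.7% first introns and 90.2% host gene. Placement by the mean summit gave 71.8% first introns. All RefSeq transcripts gave 70.1% first introns, 83% host gene, 41.7% CEBP and 7.76% PU.1, and coding transcripts alone 73.8% and 95.3%. First introns held 79.3% within 5 kb and 62.9% within 20 kb. Windows of 50 bp each side held CEBP in 28.8%, PU.1 in 5.02% and GTCTGG in 6.43%, windows of 200 bp in 51.7%, 9.43% and 21.9%, and windows at the interval midpoint CEBP in 40.5%.

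With either replicate left out, the other list alone gave 2400 to 3091 regions, a median distance of 3654 to 3820 bp, first introns in 71.5% to 71.7%, the host gene in 89.7% to 89.9%, 1816 to 2259 genes, CEBP in 35.2% to 36.8%, PU.1 in 6.25% to 6.54%, GTCTGG in 10.5% to 11.9% and a GC content of 42.3% to 44.5%. No paired analysis was possible because the labels give no replicate numbers and there was no second condition to pair. Stacks of 8 to 30 fragments at most members limit the precision of single folds. The nearest TSS need not be that of a regulated gene.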
